A study of Mus musculus with 3 samples.

Results

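A group of 10 genes that mark macrophages or encode their receptors was followed in whole mouse skin over the first days after cyclophosphamide, namely Msr1, Mrc1, Trem2, Tyrobp, Fcgr1, Fcer1g, Csf1r, Ms4a7, Cd68 and Lyz2. The list holds 10 genes, each looked for among the 20595 transcript clusters of the deposited tables by the cluster's description and by exact match of its tags to reference transcripts. Of these 10 genes, 9 were found, each in 1 cluster by both routes, and Tyrobp was found by neither. Because the list was drawn up with the values of these libraries in view, its changes are given as a description, without a test.

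The skin came from male C57BL/6 mice 2 months old whose hair had been removed 9 days before the drug, which puts the follicles into active growth. The day 0 library is from skin without the drug, and the day 1 and day 2 libraries are from skin taken 1 and 2 days after 150 mg/kg cyclophosphamide, an alkylating chemotherapy drug, given into the peritoneum (the series text gives mg/kg, the sample labels mg/km). There is 1 library per day, the sources used here do not give the number of mice behind each, and depilated skin without the drug was not analysed here for days 1 and 2. Drug, time and hair stage therefore cannot be told apart, no difference has a replicate check, and every interval below covers counting error only.

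Macrophages take up debris, microbes and antibody-coated particles through surface receptors and digest them in lysosomes. Several of these receptors have no signalling tail of their own and pass their signal through the small adaptors Tyrobp (DAP12) or Fcer1g (the Fc receptor gamma chain), whose ITAM motifs recruit the kinase Syk. In skin, macrophages lie in the dermis and around hair follicles, and most depend on signals through the CSF1 receptor, Csf1r.

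Each transcript was counted by a tag of 21 bases, the CATG cut by NlaIII and the 17 bases after it, so a level is a number of tags and does not grow with transcript length. The most abundant tag of each gene is shown, since it is what the level rests on. Positions are from a match to GRCm38 and its GENCODE M21 transcripts, and the sources used here do not name the authors' build. Capitals mark AATAAA, the usual polyadenylation signal, or, in Cd68, bases beyond the annotated transcript end, matched as poly(A).
Msr1: catgctgtgctcgtgatcaag
Mrc1: catgtagaatAATAAAgctac
Trem2: catgctctcccctcctccacc
Fcgr1: catgcaactcttaAATAAAgc
Fcer1g: catgagaaaccaccccagtag
Ms4a7: catgcgtctacagcttggcac
Cd68: catgaatggtacctactaAAA
Lyz2: catggcgagcacactgtcaaa

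Of the 9 top tags, Csf1r's included, 7 lie in a 3′ UTR and 2 in coding sequence (Ms4a7 and Lyz2). All 9 match transcripts of 1 gene only, and 7 are the CATG nearest the 3′ end of at least 1 coding transcript of their gene. They hold between 61.97% (Msr1) and 100% (Trem2, Ms4a7) of the tags of their gene. Over all tags of these genes, 74 of 3737 copies (1.98%) have no exact match in the reference.

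At day 1 the group had no common direction. Of 9 measured genes, 2 were at least 2-fold higher than at day 0 (Fcgr1 and Cd68), 1 was at least 2-fold lower (Msr1, on 11 and 4 tags) and 6 were past neither. Among all 13812 clusters with 15 or more tags, 5.79% were at least 2-fold higher and 6.83% at least 2-fold lower. The median log2 ratio of the 9 genes was -0.06, against -0.02 for all clusters. Their summed level was 258 CPM (counts of tags per 1000000 after TMM scaling) at day 0 and 324 CPM at day 1, a log2 ratio of 0.33 (0.19 to 0.47).

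At day 2 all 9 genes were higher than at day 0, 7 of them by 2-fold or more and none lower. Csf1r and Lyz2 were the 2 that stayed under 2-fold. Of all clusters, 9.11% were at least 2-fold higher at day 2 over day 0 and 8.2% lower, and because the list was chosen on this contrast nothing is read from the difference. The median log2 ratio was 1.94, against 0.01 for all clusters, and the summed level reached 787 CPM, a log2 ratio to day 0 of 1.61 (1.49 to 1.73). From day 1 to day 2, 7 genes were at least 2-fold higher and none lower, Fcgr1 and Csf1r being the 2 not past, beside 7.8% of all clusters higher and 4.89% lower. The median there was 1.29, against -0.01 for all clusters, and the log2 ratio of the summed level was 1.28 (1.17 to 1.39). The 3 comparisons share libraries, so they are not separate evidence. In whole skin, more cells of a type and more RNA per cell cannot be told apart, nor fewer cells from less RNA.

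**Figure D1:**
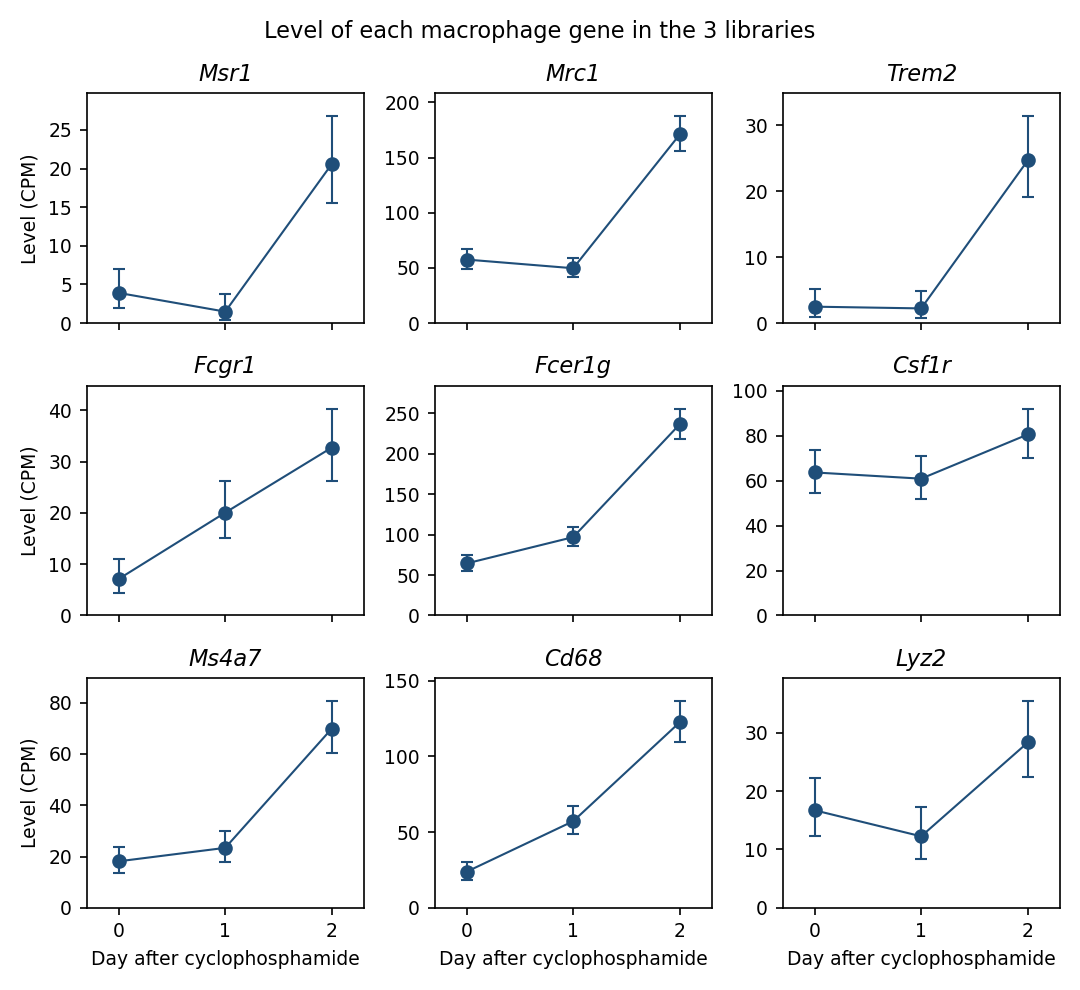
Level of each of the 9 measured genes (vertical axis, CPM, starting at 0 and scaled for each gene) in the libraries of day 0, 1 and 2 (horizontal axis); points are single libraries and bars are exact 95% Poisson intervals for counting error. Msr1, Mrc1 and Trem2 are low at both earlier days and high at day 2, Fcgr1 and Cd68 are already higher at day 1, and Csf1r changes least, from 63.6 to 80.6 CPM.

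Both endocytic receptors were lowest at day 1 and highest at day 2. Msr1 encodes the class A scavenger receptor, which binds modified lipoproteins and bacterial surfaces, and its gene spans chr8:39543232-39642750. It had 11, 4 and 56 tags at days 0, 1 and 2, or 3.91, 1.48 and 20.6 CPM. The log2 ratio of day 2 to day 0 was 2.34 (1.45 to 3.48), and that of day 2 to day 1 was 3.64 (2.36 to 5.72). The lower value at day 1, a log2 ratio to day 0 of -1.30 (-3.50 to 0.36), has an interval that includes no change, so at this depth a fall could not be detected. Its top tag, at chr8:39603550-39603570 on the minus strand in the last exon, had 6, 2 and 36 copies, and the other copies of the gene were spread over 7 more CATG sites.

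Mrc1 encodes the mannose receptor CD206, which takes up glycoproteins with terminal mannose and is much used as a marker of tissue macrophages (gene at chr2:14229414-14332023). It had 162, 134 and 465 tags, or 57.6, 49.7 and 171 CPM. The first 2 days did not differ beyond counting error, with a log2 ratio of -0.21 (-0.55 to 0.13), and day 2 stood above both, by 1.57 (1.31 to 1.84) over day 0 and 1.78 (1.502 to 2.07) over day 1. Its top tag lies at chr2:14331697-14331717 on the plus strand, 361 bases from the annotated transcript end. Both sites with 15 or more tags were higher at day 2, the site nearest the 3′ end with a log2 ratio of day 2 to day 0 of 1.57 (1.30 to 1.86) and the fifth site from that end with 1.24 (0.25 to 2.38).

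Trem2, a receptor for lipids and cell debris that signals through Tyrobp, had the largest ratio of the 9 genes at day 2 over day 0. Its 7, 6 and 67 tags, or 2.49, 2.23 and 24.6 CPM, give log2 ratios of -0.15 (-2.01 to 1.64) at day 1 over day 0 and 3.22 (2.19 to 4.68) at day 2 over day 0. Only 60 of the 13812 clusters had a larger ratio in the second comparison, and the 2 earlier days rest on few tags. Every tag of Trem2 came from 1 site, chr17:48352085-48352105 on the plus strand, 189 bases from the transcript end.

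Tyrobp itself could not be measured. In the reference its 2 protein-coding transcripts of 597 and 564 bases each hold a single CATG, near their 5′ end at base 79 and base 51, and its other transcript holds none. The tag that site would give, at chr7:30413838-30413858, is listed in none of the 3 tables and is shown because it is the only one by which this gene could appear.
Tyrobp: catgggggctctggagccctc
Tables list tags from 2 copies upward and hold only 45.3% to 47.1% of the tags the authors kept. The absence of this tag from them therefore gives no level for Tyrobp.

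Receptors and adaptors around Tyrobp and Fcer1g were described from a list of 16 other genes, of which 10 appear in the tables and 6 have 15 or more tags. At day 2 over day 0, 5 of these 6 were at least 2-fold higher and none lower, with a median log2 ratio of 1.80. The counts of this and the following lists stand beside the same 9.11% of all clusters higher and 8.2% lower, and nothing particular to a list is read from them. Pirb, an inhibitory receptor for MHC class I that does not itself use these adaptors, had 32, 38 and 134 tags and a log2 ratio of 2.10 (1.55 to 2.72). Cd300ld had 21, 12 and 82 tags and a ratio of 1.99 (1.31 to 2.78). Clec4n, the fungal receptor dectin-2 that signals through Fcer1g, had 27, 22 and 81 tags and a ratio of 1.62. At day 1 over day 0, none of the 6 was past 2-fold upward and 1 was past it downward.

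Downstream of the adaptors, 13 of 16 signalling genes had enough tags, and at day 2 over day 0, 5 were at least 2-fold higher and 1 lower, with a median log2 ratio of 0.70. Syk, the kinase that binds phosphorylated ITAMs, had 51, 51 and 52 tags, with a log2 ratio of 0.08 (-0.51 to 0.66). Inpp5d, the lipid phosphatase SHIP1, was at 1.94 and the Src-family kinase Lyn at 1.56. Blnk, an adaptor best known from B cells, was lower at -1.03.

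Of the antibody receptor genes, Fcgr1 and Fcer1g were higher at both later days. Fcgr1 encodes the high-affinity IgG receptor CD64 (gene at chr3:96282909-96293969), and it had 20, 54 and 89 tags, or 7.11, 20.04 and 32.7 CPM. It was already higher at day 1, with a log2 ratio of 1.47 (0.73 to 2.31), and reached 2.17 (1.49 to 2.98) at day 2 over day 0. Its step from day 1 to day 2 was smaller, 0.70 (0.20 to 1.22), under 2-fold but with an interval above 0. At its site with the most tags alone, that step was 0.50 (-0.09 to 1.11), with an interval that includes 0. Another site, in coding sequence, had 0, 0 and 11 tags and adds to the step of the whole gene.

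The tags of Fcgr1 do not come from the end of the annotated transcript. Its top tag is the tenth CATG from that end, at chr3:96284233-96284253 on the minus strand and 1345 bases short of it, and holds 71.17% of the tags of the gene. The second tag, 5 bases upstream and overlapping it, holds 20.25%. Both are shown because they stand in place of the last site, and the letters AATAAA lie inside the top tag.
Fcgr1, top tag: catgcaactcttaAATAAAgc
Fcgr1, second tag: catggcatgcaactcttaaat
Both sites were higher at day 2 over day 0, with log2 ratios of 1.84 (1.07 to 2.74) and 2.45 (0.86 to 5.04). The second rests on 3, 12 and 18 tags, and the difference between the sites was not tested.

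**Figure D2:**
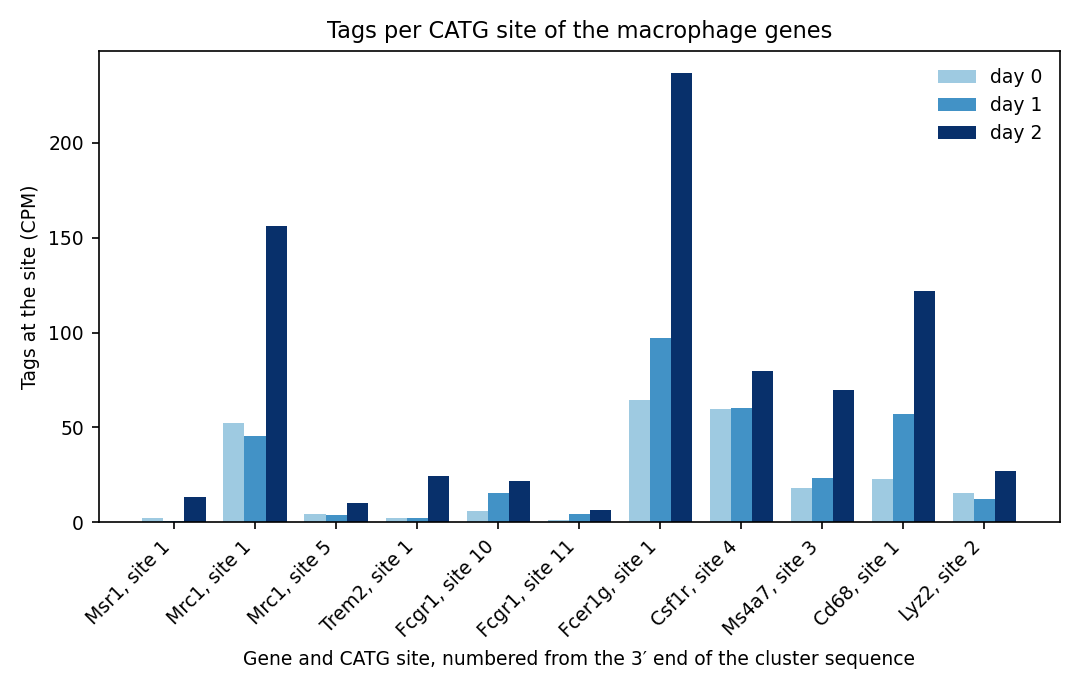
Tags at each CATG site with 15 or more tags over the 3 libraries (vertical axis, CPM), for the 9 measured genes, with sites numbered from the 3′ end of the cluster sequence and bars for single libraries of day 0, 1 and 2. Both sites of Mrc1 and both of Fcgr1 are highest at day 2, and for the other genes 1 site carries most tags.

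Fcer1g, the gamma chain shared by activating Fc receptors and several lectin receptors (chr1:171229572-171234349), had the most tags of the 9 genes. It had 181, 261 and 643 tags, or 64.4, 96.9 and 237 CPM, and each day stood above the one before. The log2 ratios were 0.59 (0.31 to 0.87) at day 1 over day 0, 1.29 (1.08 to 1.501) at day 2 over day 1 and 1.87 (1.64 to 2.12) at day 2 over day 0. Without Fcer1g the log2 ratio of the summed level at day 2 over day 0 was 1.51. Mast cells also use this gamma chain, and 3 of 8 mast cell markers were at least 2-fold higher at day 2 and none lower. Their summed level was 142, 144 and 238 CPM at days 0, 1 and 2. Of these markers, Cpa3 was at a log2 ratio of 1.03, Tpsb2 at 0.89 and Cma1 at 0.35. Their part in the change of Fcer1g was not tested.

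Of 7 other Fc receptor genes, 4 were at least 2-fold higher at day 2 over day 0 and none lower, with a median log2 ratio of 1.24. Fcgr2b, the inhibitory IgG receptor, had 29, 28 and 74 tags, a log2 ratio of 1.38 (0.76 to 2.07). Fcgr3, a low-affinity activating receptor that needs the gamma chain, had 218, 125 and 374 tags and a ratio of 0.83. Fcgr4, another activating receptor of mouse myeloid cells, had 8, 14 and 46 tags and a ratio of 2.50 (1.48 to 3.87). Fcgrt, the neonatal receptor that recycles IgG, was at 1.24, and Fcrls was level at 0.01.

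Csf1r was the most even of the 9 genes. It encodes the receptor for CSF1 and IL-34, on which most tissue macrophages depend (chr18:61105572-61131139), and it had 179, 164 and 219 tags, or 63.6, 60.9 and 80.6 CPM. Its log2 ratio was -0.06 (-0.38 to 0.25) at day 1 over day 0 and 0.34 (0.05 to 0.63) at day 2 over day 0. The interval of the second ratio lies above 0 and wholly under 2-fold. As a share of all tags of the 9 genes, Csf1r went from 24.69% at day 0 to 18.79% and 10.24%. A single tag holds 96.8% of its copies and is the last CATG of 1 of its 2 coding transcripts.

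Neither ligand differed from day 0 beyond counting error at day 2, though other pairs of days did differ. Csf1 had 38, 26 and 50 tags, a log2 ratio of day 2 to day 0 of 0.44 (-0.19 to 1.09), and Il34 had 58, 102 and 67 tags, a ratio of 0.25 (-0.27 to 0.79). Il34 was higher at day 1 than at day 0, by 0.87 (0.40 to 1.37), and Csf1 higher at day 2 than at day 1, by 0.92 (0.22 to 1.67). In the list of 12 genes around this receptor, its ligands, related receptors and myeloid transcription factors, 9 had enough tags. At day 2 over day 0, 3 of these were at least 2-fold higher and none lower, with a median of 0.44. Csf2rb, the beta chain shared by the receptors for GM-CSF, IL-3 and IL-5, was at 1.76. Runx1 was at 0.97, and Cebpb, a transcription factor that many cell types use, at -0.62.

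Ms4a7, a membrane protein of the MS4A family used as a macrophage marker (chr19:11321039-11336146), had 51, 63 and 190 tags, or 18.1, 23.4 and 69.9 CPM. Day 1 did not differ from day 0 beyond counting error, with a log2 ratio of 0.36 (-0.19 to 0.93), while day 2 over day 0 was 1.94 (1.49 to 2.42). All its tags come from 1 site in a coding exon, chr19:11333334-11333354 on the minus strand, which is the last CATG of 1 of its 3 coding transcripts. Of 5 other genes of the family with enough tags, 4 were at least 2-fold higher at day 2 over day 0 and none lower. Ms4a6b had 45, 118 and 209 tags and a log2 ratio of 2.25, and Ms4a6d had 27, 31 and 98 tags and a ratio of 1.89. Both clusters were named from tags of their own gene.

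Cd68, a heavily glycosylated protein of macrophage lysosomes and endosomes (chr11:69664213-69666170), was higher at each day. It had 67, 154 and 333 tags, or 23.8, 57.2 and 122 CPM. The log2 ratios were 1.26 (0.84 to 1.70) at day 1 over day 0, 1.10 (0.82 to 1.38) at day 2 over day 1 and 2.35 (1.98 to 2.76) at day 2 over day 0. Cd68 and Fcgr1 were the 2 genes at least 2-fold higher at day 1. The top tag of Cd68 starts 18 bases before the transcript end, at chr11:69664213-69664230 on the minus strand, so that its last 3 bases are outside the transcript.

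General lysosomal and phagocytic genes were described from a list of 23. Of 20 with enough tags, 2 were at least 2-fold higher at day 2 over day 0, a share near the 9.11% of all clusters, and none was lower. Their median log2 ratio was 0.41. Gas6, a bridge between dying cells and the receptors Axl and Mertk, had 602, 1056 and 1321 tags and a ratio of 1.18. Cybb, the catalytic subunit of the phagocyte oxidase, was at 0.79 and the cathepsin Ctsb at 0.72. Many cell types of skin use lysosomal enzymes.

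Lyz2, the lysozyme of macrophages and neutrophils (chr10:117277541-117282272), had 47, 33 and 77 tags, or 16.7, 12.2 and 28.3 CPM. Its log2 ratio was -0.44 (-1.14 to 0.22) at day 1 over day 0, 0.75 (0.22 to 1.32) at day 2 over day 0 and 1.20 (0.60 to 1.84) at day 2 over day 1. It was thus past 2-fold against day 1 alone, with an interval that reaches under 2-fold.

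The level of Lyz2 rests on a tag that is not the last of its transcript. The CATG nearest the 3′ end of its reference transcript is listed in none of the 3 tables, and 95.54% of its tags come from the next site, in coding sequence at chr10:117278162-117278182 on the minus strand. That tag differs from the tag at the same place in its neighbouring paralog Lyz1 by 2 substitutions, G9A and C14A, counted from 1 at the C of CATG and written with the base of Lyz2 first. The sequences are shown, with those bases in capitals, because the 2 tags are similar. The Lyz1 tag of this site had 0, 3 and 3 copies, against 43, 33 and 74 of the Lyz2 tag.
Lyz2, last site, not listed: catgtgtcagtctgtttaacc
Lyz2, counted site: catggcgaGcacaCtgtcaaa
Lyz1, same site: catggcgaAcacaAtgtcaaa
Lyz1, an intestinal Paneth cell lysozyme also found in mouse phagocytes, had 155, 90 and 90 tags in its own cluster, nearly all from other sites. Its log2 ratio at day 2 over day 0 was -0.73 (-1.13 to -0.35), the opposite direction to Lyz2.

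**Figure D3:**
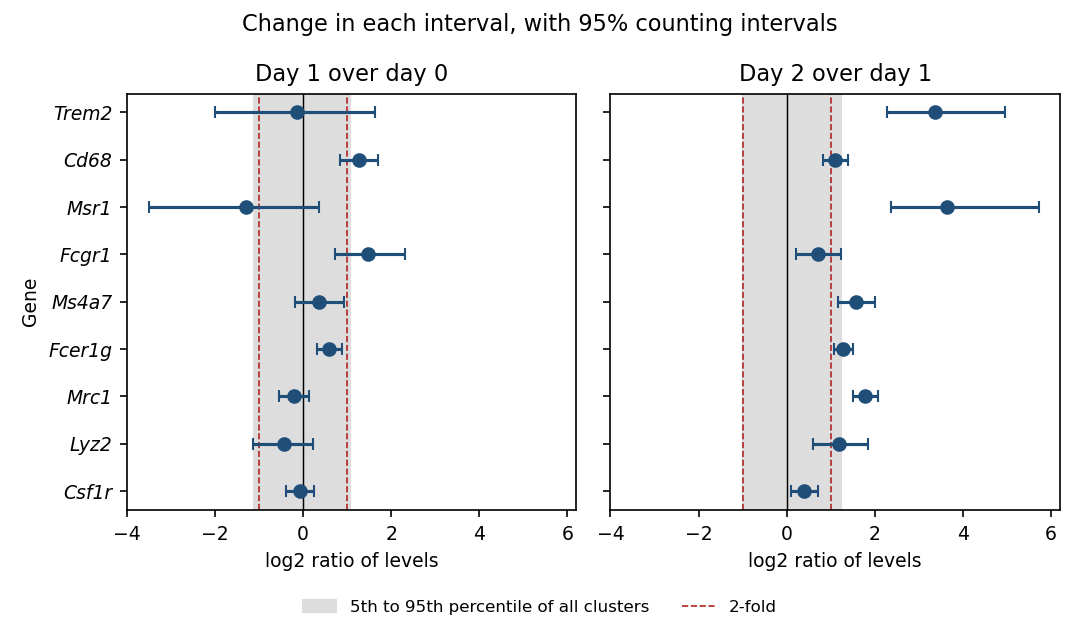
Log2 ratio of levels (horizontal axis) from day 0 to day 1 and from day 1 to day 2 for the 9 measured genes, with exact 95% counting intervals, dashed lines at 2-fold and a grey band from the 5th to the 95th percentile of the 13812 clusters. Fcgr1 and Cd68 lie beyond 2-fold upward and Msr1 beyond it downward in the first step, Msr1 and Trem2 are at 3.64 and 3.36 in the second, and Csf1r lies within the band in both.

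Intervals that include no change and those that do not can be listed, but the courses of single genes were not tested against each other. In Fcgr1, Fcer1g and Cd68 the interval of the ratio of day 1 to day 0 lies above 0, whereas in the other 6 genes it includes 0. From day 1 to day 2 the intervals of all 9 genes lie above 0. For Fcgr1 this does not hold at its site with the most tags alone, where the interval includes 0. The intervals of 5 genes lie wholly beyond 2-fold, namely Msr1, Mrc1, Trem2, Fcer1g and Ms4a7. The intervals of genes in the first group and of others overlap, as for Fcer1g and Ms4a7, and none includes variation between mice.

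Beyond the listed members, 26 other macrophage genes were counted, of which 23 appear in the tables and 16 have 15 or more tags. None of the 16 was past 2-fold at day 1. At day 2 over day 0, 8 of them were at least 2-fold higher and none lower, with a median log2 ratio of 0.77. Lyve1, a hyaluronan receptor of lymphatic endothelium and of some tissue macrophages, had 18, 21 and 103 tags and a ratio of 2.53 (1.83 to 3.38). Cd53, a leukocyte tetraspanin, was at 1.63, the haemoglobin-haptoglobin scavenger receptor Cd163 at 1.43 and the complement chain C1qc at 1.27. Adgre1, which encodes F4/80, had 84, 43 and 72 tags and a ratio of -0.17 (-0.65 to 0.30). It was lower at day 1, with a log2 ratio of -0.90 (-1.47 to -0.36). C1qa, Cd14 and Vsig4 are not listed in the tables, and Itgam, Aif1 and Cx3cr1 are among those with fewer than 15 tags.

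The other scavenger and endocytic receptors were mostly past no threshold. Of 14 with enough tags, 3 were at least 2-fold higher at day 2 over day 0 and none lower, with a median of 0.41. Besides Cd163, which stands in both lists, Scara3 was at 1.51, Scarb1, a receptor for high-density lipoprotein, at 0.96 and the lectin Cd209d at -0.89. Monocyte genes were past 2-fold upward in 3 of 7, with a median of 0.89. Ly6c1 had 302, 781 and 1389 tags and a ratio of 2.25, and endothelial cells also express this gene, which has a near-identical neighbour in Ly6c2. F13a1, a coagulation factor subunit of monocytes and some tissue macrophages, was at 1.12, and the chemokine receptor Ccr2 at 0.77.

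Genes used to grade activation did not move one way. Of 7 genes of alternative activation, 2 were at least 2-fold higher and 2 lower at day 2 over day 0, with a median of -0.14. Il4ra, the IL-4 receptor alpha chain, had 106, 277 and 441 tags and a ratio of 2.10 (1.80 to 2.43). Arg1, an arginase that keratinocytes can also make, had 320, 493 and 124 tags and a ratio of -1.32 (-1.63 to -1.02). Of 11 genes of inflammatory activation, 5 had enough tags, and 2 of these were past 2-fold upward and none downward.

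**Figure D4:**
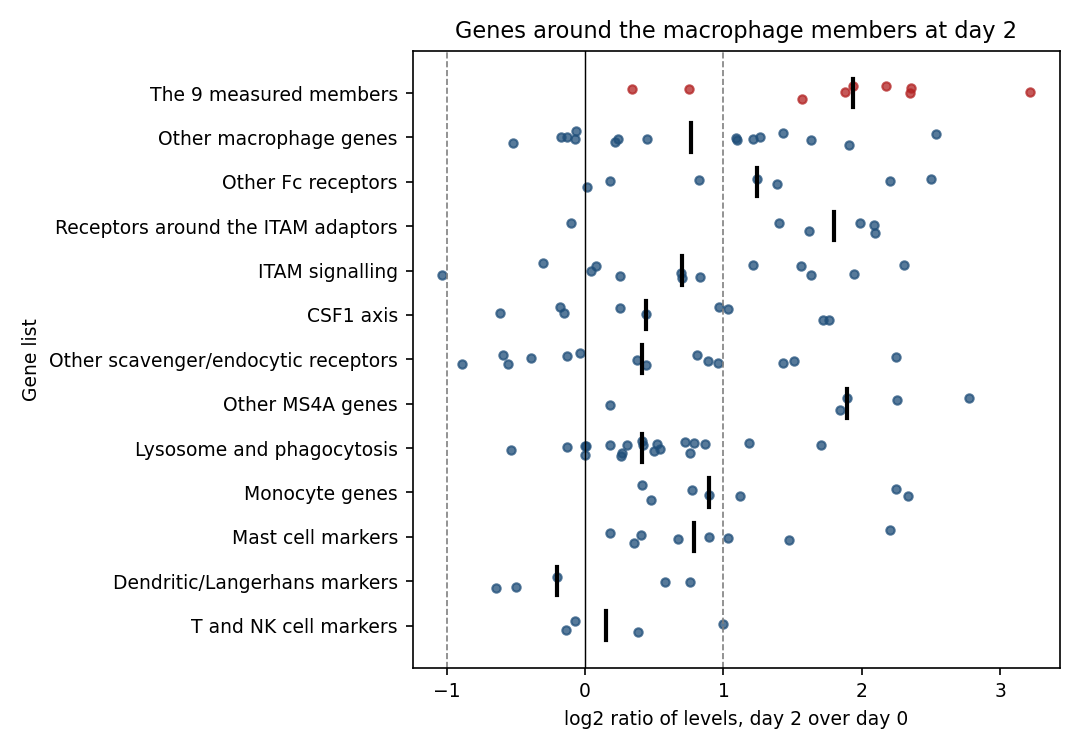
Log2 ratio of day 2 to day 0 (horizontal axis) of single genes with 15 or more tags, in the 9 measured members (red) and in lists of related genes and of markers of other immune cells (blue), with black bars at the medians and dashed lines at 2-fold. The median is 1.94 in the members, 1.80 in the receptors around the ITAM adaptors, 0.77 in other macrophage genes and 0.41 in lysosomal genes.

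Markers of other cell types also moved between the libraries. Of 14 neutrophil markers 4 appear in the tables, and Ly6g, Mpo and Elane are not listed in any library, while the neutrophil marker list summed to 21.3, 31.6 and 39.0 CPM over the 3 days. S100a9 had 23, 65 and 83 tags, a log2 ratio of day 2 to day 0 of 1.88, while Mmp9 had 25, 17 and 21 tags and Camp, which is not listed at day 2, had 12 and 3 at the earlier days. Dendritic and Langerhans cell markers summed to 29.9, 29.3 and 29.8 CPM, T and NK cell markers to 21.7, 21.5 and 25.7 CPM, and B cell markers to 1.07, 2.60 and 1.84 CPM. Skeletal muscle markers summed to 11424, 17631 and 23605 CPM, with 6 of 11 at least 2-fold higher at day 2 over day 0. Red cell markers went from 1833 and 1653 CPM to 145 CPM, with 3 of 3 lower, and hair follicle markers from 37836 and 56428 to 22832 CPM, with 4 of 8 lower. Their part in the levels of the macrophage genes was not tested.

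Genes near the members in course were sought among 6610 named clusters at 20 CPM or more in a library. By log2 ratio, the members' medians were -0.06 at day 1 over day 0 and 1.29 at day 2 over day 1. Distance was measured to these 2 values, which come from different genes and form no member's own course. The 10 nearest were Adamts5, Elf4, Plekha2, Sqor, Usp28, Ubr1, Stx2, Sypl2, Ccl8 and Pld4, at distances of 0.07 to 0.14. Their log2 ratios of day 2 to day 0 were 1.03 to 1.32, under the members' median of 1.94. Adamts5, a protease of matrix proteoglycans, had 120, 113 and 268 tags, and Ccl8, a chemokine, had 1894, 1586 and 4005. With 3 libraries a course has few points, and likeness is a description only.

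Promoters of 7 of the 9 measured genes are in the RefSeq table for GRCm38.p6, as 8 promoters of 300 bases each, from 250 bases before to 50 after the start. They were searched on both strands for GAGGAAGT, a PU.1 site, and TGANTCA, a loose form of the AP-1 site. The interferon-stimulated response element and TTCNNNGAA, the STAT site, were searched for as well. N stands for any base. The AP-1 letters occurred in 3 of the 8 promoters, from 3 of the 7 genes, and in 7.81% of all 32851 promoters. Their middle base was G in the Cd68 matches, A in that of Trem2 and T in that of Ms4a7. The STAT letters occurred in 1 of the 8, that of Fcgr1, and in 8.3% of all. The PU.1 letters occurred in none of the 8 and in 3.2% of all, and the interferon element in none and in 3.44%. The matches are shown in 30-base windows with the motif in capitals and the start of the motif counted from the transcription start. A match is a description of letters, not a binding site.
Cd68, AP-1 at -149: taagttccgtgTGAGTCAgctgcctcattc
Cd68, AP-1 at -24: gctgaggtgtcTGAGTCAggtttggggtgg
Trem2, AP-1 at -9: ttctccctcctTGAATCAcagcgcctaccc
Ms4a7, AP-1 at -81: caggaacatttTGATTCAtgcaaactatat
Fcgr1, STAT at -109: taaggatgtatTTCCCAGAAaagggaacag
These windows lie at chr11:69666301-69666330 and chr11:69666176-69666205 (minus strand), chr17:48346381-48346410 (plus), chr19:11334758-11334787 and chr3:96294060-96294089 (both minus). The Ms4a7 window lies within the span of its gene, chr19:11321039-11336146, before a start inside it.

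The 3 tables hold 2731787, 2859653 and 2636804 tags, which are 45.3%, 47.1% and 46.5% of the tags the authors kept. The share of higher clusters among those past 2-fold moves with the scaling in the comparisons that use day 1. With TMM, 45.9% of the clusters past 2-fold at day 1 over day 0 were higher, and with each table's own total 32.5% were, the median of all clusters moving to -0.15. At day 2 over day 1 the share was 61.5% with TMM, 71.1% with all kept tags and 72.9% with each table's own total, the median moving to 0.12 with the last. No measured member crossed 2-fold under any of these scalings.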

How the data were processed

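Whole skin RNA was profiled by digital gene expression at 3 times, with 1 library per time. Per the labels' protocols, oligo(dT)-bound cDNA was cut by NlaIII, released as tags by MmeI, amplified by PCR and sequenced. The deposited tables list UniGene clusters with their raw tag count, per the file headers, the copy number and CATG site of each tag, and TPM values, which the authors made from the counts and all kept tags. Tags were mapped to a reference of the sequencing centre, per the series text. The sources used here name no aligner or build. In all clusters the copies sum to the count (0 exceptions), and the smallest copy number is 2.

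Tags were matched on the sense strand to GENCODE M21 transcripts extended by 17 A. A cluster took the gene with at least 80% of its matched and 50% of all its tags: 15451 clusters were named so, 521 by tags shared between genes, 155 by RefSeq accession, and 4468 stayed unnamed. Counts were scaled by TMM (edgeR 4.0.16, R 4.3.3; factors 1.03, 0.942 and 1.03). With 1 library per group no test was possible. Log2 ratios carry a pseudocount of 0.5 tags, clusters needed 15 tags over the libraries, and a difference was counted at 2-fold or more. Intervals of ratios are exact (Clopper-Pearson) and of levels exact Poisson, at 95%. PCR copies cannot be told from molecules. On simulated Poisson counts, 96.1% of the intervals held the true ratio at day 1 over day 0 (13812 clusters). The intervals assume such counts, so this checks the calculation only and not variation by PCR or between mice. Genes not listed in a library have no ratio there. DESeq2 1.42.0 size factors, other totals, minimums, folds, pseudocounts and choices of sites were alternatives.

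The members and lists were chosen with earlier results of these data known. Named were all members and, per list, up to 4 genes with the largest ratio of day 2 to day 0 at 20 CPM or more, the ligands and partners Csf1, Il34, Syk, Fcgr2b, Fcgr3, Fcgr4 and Adgre1, and the 10 genes nearest in course. Lyz1 was added after its values were seen, and 1 gene that the rule names is not reported here. Marker lists of fibroblasts, endothelium, keratinocytes and adipocytes had 2 of 7, 3 of 7, 0 of 8 and 1 of 7 genes at least 2-fold higher at day 2 over day 0. Script versions were Python 3.11.15, scipy 1.17.1 and pandas 2.3.3.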

Additional observations from a re-analysis of the deposited data

How the results depend on the processing

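Of 99 recomputed values over the members and all clusters, 82 were classed as the same and 17 as moved. The limits of the first class were wide. At day 1 over day 0 it holds the count of higher members going from 2 to 3 at 1.5-fold. It also holds the members' median going from -0.06 to -0.19 with the totals of the tables. Of 204 values of single genes, 0 moved beyond their counting interval. Reversal was counted only for ratios of 2-fold or more, and 0 of these changed direction. The median of the members at day 1 over day 0 went from -0.06 to 0.01 with the site with the most tags. Some recomputed values could not differ. Each measured gene has 1 cluster, so keeping the largest cluster repeats the main values. Choices of site cannot change genes with 1 site, such as Trem2. The log2 ratio of the summed level at day 2 over day 1 became 1.41 with the totals of the tables. Restricting tags to the site nearest the 3′ end left 5 of 9 genes by construction. There, at day 1 over day 0, 1 gene was at least 2-fold higher (Cd68) and 1 at least 2-fold lower (Msr1). The summed ratio was 0.49. At day 2 over day 0 the median was 2.39 with a summed ratio of 1.93. At day 2 over day 1 the summed ratio was 1.44. Of all clusters, 1744, 2390 and 1753 were past 2-fold at day 1 over day 0, day 2 over day 0 and day 2 over day 1. Without a minimum of tags these were 5658, 6629 and 5628, with a minimum of 60 tags 648, 1177 and 644, and at 1.5-fold 4642, 5315 and 4406. Where the interval also had to leave out 1, 1076 at day 1 over day 0 and 1111 at day 2 over day 1 were counted. Levels of Msr1 and Trem2 at days 0 and 1 rest on 4 to 11 tags, which limits their ratios. No paired analysis was possible because each group has 1 library.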
